A study of Mus musculus with 28 samples.

Results

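Chromatin of untreated SirT7-/- mouse embryonic fibroblasts (KO-NT) was set against that of untreated wild-type fibroblasts (WT-NT), state by state along the 19 autosomes. Each genotype had 1 deposited segmentation, which assigns every 200 bp bin to 1 of 4 states named U1 to U4. The comparison took in the 12361703 bins, 2472 Mb in all, that both segmentations hold on the autosomes. Behind the 2 segmentations stand 10 of the 28 libraries of the series: for KO-NT, 2 libraries each of H3K27me3 and mH2A1 ChIP and 1 input, and for WT-NT the same numbers. Per the labels, the cells of both genotypes were fibroblasts of strain 129s2 from embryos of day 14.5, used at passages 3 to 4, and they differed in the SirT7-/- genotype. The remaining libraries were the corresponding GS samples of both genotypes and SIRT7 ChIP with its inputs from wild-type cells. NT and GS are not spelled out in the labels, and the title of the series is about glucose starvation. The sources used here do not say how the SirT7-/- allele was made, nor how many embryos or cultures stand behind a library.

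SIRT7 is a nuclear, NAD-dependent deacylase that acts on histones and other chromatin proteins. H3K27me3 is the histone mark written by Polycomb repressive complex 2 and found over silent developmental genes, often in broad domains. MacroH2A1 is a histone H2A variant with a large additional macrodomain that replaces H2A in part of the nucleosomes. Its macroH2A1.1 splice form, against which the antibody was raised, binds ADP-ribose and NAD metabolites, and macroH2A1 commonly lies over the same broad silent regions as H3K27me3. In fibroblasts both are measured as long stretches of enrichment rather than as sharp peaks, so the lengths and borders of segments are as informative as their total.

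The sources used here do not give the meaning of the 4 states, the tool that made them, or whether the definitions were common to both genotypes. The initial 3 Mb of the autosomes, which are unassembled in mm9, held only 2 marked bins of 285000 in KO-NT and 0 in WT-NT, so U1 includes sequence without reads. U2, U3 and U4 together are called marked sequence. Replicates had been pooled before segmentation, the depth of each library is unknown, and no value below has a replicate error or a test. An SD over the 19 autosomes describes spread along the genome only, and whether a difference exceeds that between cultures was not tested. The Sirt7 gene itself could not serve as a check of the genotype, because no annotation of build mm9 was at hand and no SIRT7 ChIP from SirT7-/- cells belongs to the series.

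Marked sequence covered less of the genome in KO-NT. Among the marked states, U2 and U4 had smaller shares there and U3 a larger one. Marked states held 655 Mb or 26.5% of the autosomes in KO-NT, and 757 Mb or 30.6% in WT-NT. U2 covered 17.2% of the bins in KO-NT and 20.8% in WT-NT, which is 17.4% less of that state. U4, the rarest state, covered 1.01% in KO-NT and 2.12% in WT-NT, a ratio of 0.476. U3 went the other way and covered 8.30% in KO-NT, against 7.69% in WT-NT. With U3 and U4 added together the genotypes were close, at 9.30% in KO-NT and 9.81% in WT-NT. U1, the unmarked state, held 73.5% in KO-NT and 69.4% in WT-NT.

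These directions were shared by all 19 autosomes. The U2 difference, KO-NT minus WT-NT, averaged -3.67 percentage points per chromosome with an SD of 0.659, and lay between -5.18 on chromosome 11 and -2.64 on chromosome 4. The U1 difference ran from 3.10 points on chromosome 16 to 5.81 on chromosome 11. For U3 the smallest excess in KO-NT was 0.160 points on chromosome 7, and the widest was 1.43 on chromosome 11. For U4 the shortfall was narrowest on chromosome 3, at -0.544 points, and widest on chromosome 11, at -2.07. Chromosome 11 thus held the widest difference of each of the 4 states in percentage points. Relative to the WT-NT share, it was widest there for U1 (9.19%) and U2 (-23.6%) only. For U3 the widest relative difference was on chromosome 15 (13.2%), and for U4 on chromosome 2 (-57.4%). In the GS segmentations, which share no library with the NT ones, U2 held 17.6% in KO-GS and 20.9% in WT-GS. There U3 held 8.23% in KO-GS against 8.40% in WT-GS, and U4 held 1.85% in KO-GS against 1.71% in WT-GS, so neither state differed in the NT direction.

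**Figure D1:**
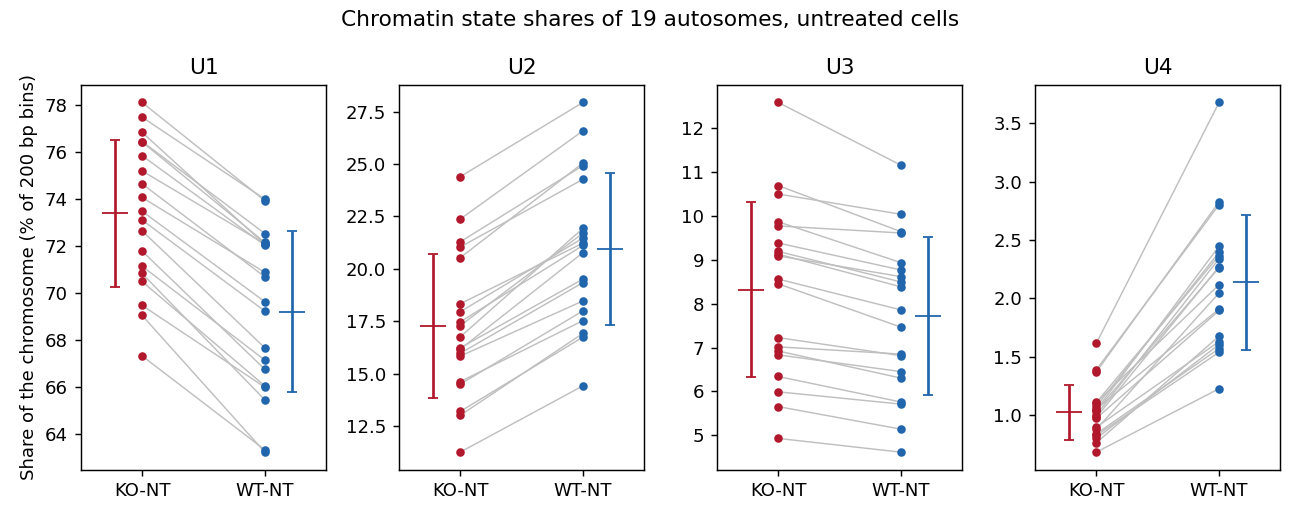
Share of each of the 19 autosomes (percent of its 200 bp bins) in the states U1 to U4, with KO-NT on the left and WT-NT on the right of each panel. A grey line joins the values of 1 chromosome, and the bar beside each column of points is the mean with its SD over chromosomes. All lines of U2 and U4 lie lower in KO-NT and all lines of U1 and U3 lie higher.

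Of all bins, 11.0% were in different states, which is 273 Mb. The share per chromosome averaged 11.1% with an SD of 1.07, from 9.15% on chromosome 7 to 13.5% on chromosome 11. Any other pair among the 4 segmentations also differed over a like share of the bins, from 9.60% for WT-NT with WT-GS to 10.9% for KO-NT with WT-GS. The genotypes without treatment were the pair with the highest share, by a small margin over the other pairs that held KO-NT. KO-NT with KO-GS, of the same genotype, differed over 267 Mb, beside 273 Mb for KO-NT with WT-NT. Every pair without KO-NT differed over less, at most 9.85% of the bins for KO-GS with WT-GS. The higher share thus set KO-NT apart from all the other segmentations and not from WT-NT alone. The cause of this was not tested.

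The largest class of differing sequence was U1 in KO-NT and U2 in WT-NT. It covered 118 Mb, which was 43.3% of all differing sequence and 23.0% of WT-NT U2. The reverse, U2 in KO-NT and U1 in WT-NT, covered 41.4 Mb, so the imbalance between the directions was 2.86 to 1. A similar imbalance of 3.74 to 1 held between U1 and U3, with 31.0 Mb U1 in KO-NT and U3 in WT-NT and 8.30 Mb the other way round. Between U1 and U4, 2.70 Mb was U1 in KO-NT and U4 in WT-NT, and 0.320 Mb the reverse. In Mb the shortfall of marked sequence thus lay mostly where WT-NT was U2 or U3, and little of it where WT-NT was U4. Each of these imbalances pointed the same way on all 19 autosomes.

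Among the marked states, sequence stood at U3 in KO-NT where it was U4 or U2 in WT-NT. U3 in KO-NT and U4 in WT-NT covered 25.9 Mb, which is 49.4% of WT-NT U4, and the reverse only 3.03 Mb. U3 in KO-NT and U2 in WT-NT covered 23.3 Mb, against 8.65 Mb for the reverse. The U3 total thus joined a shortfall towards U1 with an excess over U2 and U4. Sequence in U4 in both genotypes came to 17.7 Mb, which was 70.8% of KO-NT U4 and 33.7% of WT-NT U4. Shared U2 came to 368 Mb, 86.8% of the U2 of KO-NT and 71.7% of that of WT-NT, and shared U3 to 148 Mb, 71.9% of the U3 of KO-NT and 77.6% of that of WT-NT.

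**Figure D2:**
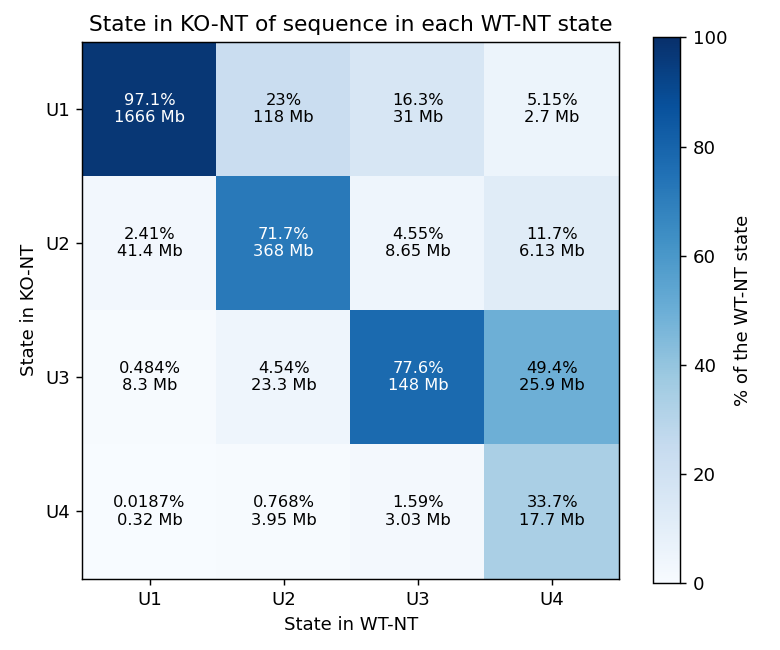
State in KO-NT (rows) of the sequence in each WT-NT state (columns), as percent of the WT-NT state and in Mb. Columns add up to the whole of a WT-NT state. The U4 column is the only one in which another state, U3 with 49.4%, exceeds the state itself.

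KO-NT held fewer segments of the marked states, and its U2 and U3 segments were longer. It held 232353 segments of all states, against 348157 in WT-NT, which is 33.3% fewer. In GS the order was reversed, with 331492 segments in KO-GS and 314776 in WT-GS. U1 segments were more numerous, 35600 in KO-NT and 33041 in WT-NT, on all 19 autosomes. U2 had 55387 segments in KO-NT and 81724 in WT-NT, with a median length of 3400 bp in KO-NT and 2600 bp in WT-NT. U3 had 68288 segments in KO-NT and 98439 in WT-NT, and their median length was 1800 bp in KO-NT and 1200 bp in WT-NT. Length too was in the other order in GS. Median U2 length was 2600 bp in KO-GS and 2800 bp in WT-GS, and median U3 length 1200 bp in KO-GS and 1400 bp in WT-GS. U4 had 73078 segments in KO-NT and 134953 in WT-NT. The median length of U4 was 200 bp in both genotypes, single bins made up 64.1% of U4 segments in KO-NT and 58.6% in WT-NT, and mean U4 length was 0.341 kb in KO-NT and 0.388 kb in WT-NT. U2, U3 and U4 segments were fewer in KO-NT on all 19 autosomes, with a KO-NT to WT-NT ratio of 0.545 on average for U4 (SD 0.0276 over chromosomes).

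U2 segments were fewer in KO-NT mostly among those under 10 kb, and U3 segments were more numerous among the long ones. From 1 to 2 kb there were 10623 U2 segments in KO-NT and 19196 in WT-NT, whereas at 100 kb or more there were 194 in KO-NT and 201 in WT-NT. U3 segments of 10 kb or more numbered 3429 in KO-NT and 1692 in WT-NT, and they held 26.8% of U3 sequence in KO-NT and 13.0% in WT-NT. The mean U2 segment was 7.67 kb in KO-NT and 6.29 kb in WT-NT, 21.9% longer, but once segments under 1 kb were joined to their longer neighbour the excess was 0.238%. By the same joining the shortfall in U3 segment number was 11.4% in place of 30.6%, and the excess in mean U3 length 18.98% in place of 55.4%, so much of the difference in U2 and U3 segment length rested on pieces under 1 kb.

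**Figure D3:**
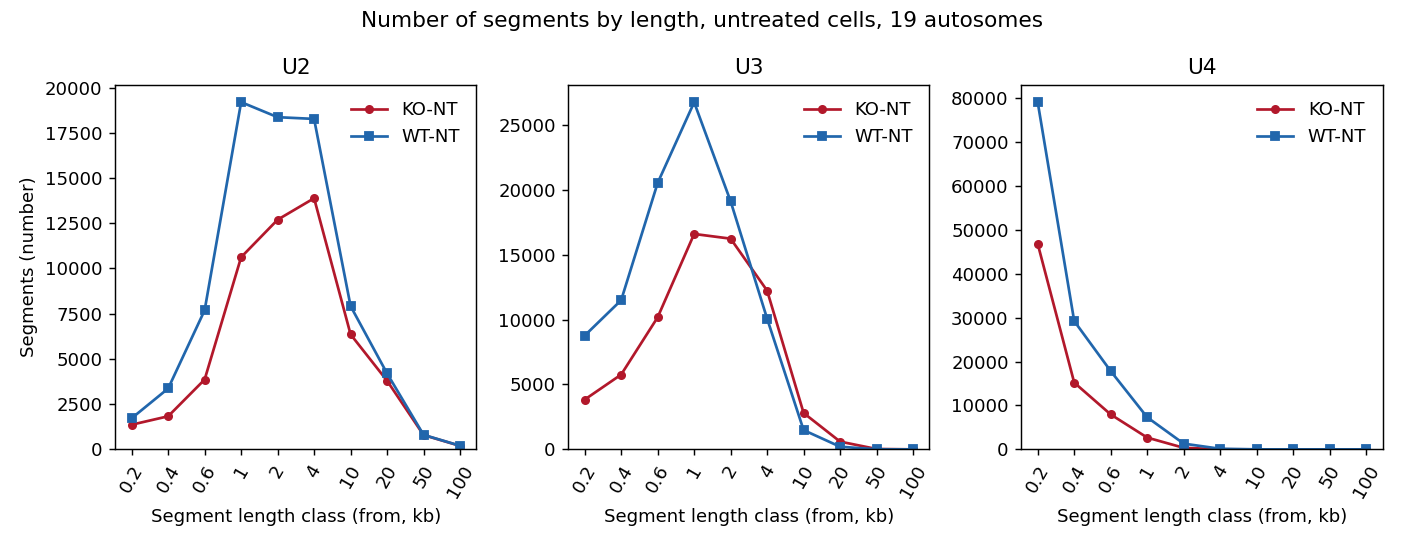
Number of segments by length class for U2, U3 and U4 in KO-NT (circles) and WT-NT (squares); each class is named by its lower limit in kb. WT-NT had more short segments of each state, and KO-NT had more U3 segments from 4 kb upwards.

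U4 mostly sat as a thin piece inside or beside U3. In KO-NT, 40.6% of U4 segments lay between U3 segments on both sides, 30.6% between U2 and U3, and 24.6% between U2 on both sides, and in WT-NT these shares were 40.4%, 30.8% and 25.2%. The KO-NT state of WT-NT U4 followed its flanks. Where U3 lay on both sides, 68.3% of the WT-NT U4 sequence was U3 in KO-NT and 28.3% was U4. Where U2 lay on both sides, 41.9% was U4 in KO-NT, 31.7% U2 and 17.5% U3.

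Many U3 segments were joined in KO-NT. A single KO-NT U3 segment spanned 2 or more WT-NT U3 segments in 18525 cases, 27.1% of the U3 segments of KO-NT, and the WT-NT sequence between the joined pieces was 11.5 Mb of U4, 3.43 Mb of U2 and 1.24 Mb of U1. In the opposite direction 5041 WT-NT U3 segments, 5.12%, spanned 2 or more of KO-NT. The neighbours of U3 differed as well. Of all U3 borders, 60.8% were with U4 in KO-NT and 77.5% in WT-NT, and 25.8% were with U1 in KO-NT and 13.6% in WT-NT. Direct borders between U1 and U3 numbered 35259 in KO-NT and 26767 in WT-NT.

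Marked domains, the uninterrupted stretches of U2, U3 and U4, were slightly more numerous and shorter in KO-NT. They numbered 35585 in KO-NT and 33025 in WT-NT, with a mean of 18.4 kb in KO-NT and 22.9 kb in WT-NT. The N50, a median of domain length in which every domain counts by its own length, was 47.2 kb in KO-NT and 64.8 kb in WT-NT. Domains of 100 kb or more numbered 996 in KO-NT and 1537 in WT-NT. So the inside of marked domains held fewer state borders in KO-NT while the domains themselves were more broken up.

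Of the KO-NT domains, 3527 (9.91%) had no marked bin in WT-NT, and 2364 (6.64%) overlapped 2 or more of WT-NT. Of the WT-NT domains, 8525 (25.8%) had no marked bin in KO-NT, and 6178 (18.7%) overlapped 2 or more KO-NT domains. Domains without a marked bin in the other genotype were short. Among WT-NT domains made of U2 only, 65.8% of those under 5 kb were without a marked bin in KO-NT, 26.1% of those of 5 to 20 kb and 0.910% of those of 20 kb or more. Among WT-NT domains that held U3 or U4 the shares were 49.0%, 10.2% and 0.286%. Large domains with U3 or U4 were divided instead. Of the 8053 such WT-NT domains of 20 kb or more, 56.4% overlapped 2 or more KO-NT domains, while 85.5% of their sequence was marked in KO-NT. In the reverse direction, 16.3% of such KO-NT domains overlapped 2 or more of WT-NT. For domains of 20 kb or more made of U2 only, the shares were alike, 26.5% of WT-NT and 26.7% of KO-NT domains.

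The same dependence on length held for single U2 segments. Of the 81724 WT-NT U2 segments, 29200 (35.7%) had no U2 bin in KO-NT. The longer the WT-NT segment, the more of it was U2 in KO-NT: 40.7% for segments of 400 to 1000 bp, 54.4% at 2 to 5 kb, 71.4% at 10 to 20 kb and 92.0% at 50 kb or more. None of the 1003 U2 segments of 50 kb or more was without U2 in KO-NT. KO-NT U2 segments followed in WT-NT rose with length as well. Their shared part was 63.0% at 400 to 1000 bp, 77.8% at 2 to 5 kb, 87.1% at 10 to 20 kb and 94.0% at 50 kb or more. The gradient was thus not particular to 1 direction of the comparison. U3 segments of WT-NT showed no such gradient, with 75.8% shared at 400 to 1000 bp and 77.2% at 10 to 20 kb. Those of KO-NT did, with 47.7% and 83.2% shared with WT-NT at these lengths.

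Differing bins were concentrated at the borders of WT-NT segments. Bins within 2 kb of a WT-NT border made up 21.9% of the autosomes and 66.7% of the differing bins. Of the bins near a border 33.7% differed, and of those farther away 4.70%. Since U4 consists almost entirely of border sequence, the states were also taken singly. For U2 in WT-NT, 42.3% of the bins within 2 kb of a border differed and 18.8% of those beyond. For U1 the shares were 18.97% and 1.66%, and for U3 they were 23.0% and 20.2%.

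Long segments gave the same order. In the 13120 WT-NT U2 segments of 10 kb or more, the outer 2 kb at each end differed over 31.9% and the interior over 16.2%, with the ends higher on all 19 autosomes. The difference between ends and interior had an SD of 1.63 points over chromosomes around 15.7 points. In the 1692 U3 segments of 10 kb or more the ends differed over 27.02% and the interior over 20.4%. The ends of U2 differed by neighbour: 42.8% of the outer 2 kb differed next to U1, 52.3% next to U3 and 21.6% next to U4.

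With distance from the border, the share of WT-NT U2 bins in another state in KO-NT declined steadily, from 51.6% in the outermost bin to 10.5% at 10 to 20 kb and 3.22% at 50 to 100 kb. The state found in its place depended on the distance too. In the outermost U2 bin, 25.7% were U1 in KO-NT and 21.9% were U3, whereas at 2 to 5 kb 27.2% were U1 and 0.638% were U3. U3 bins differed over 26.1% in the outermost bin and still over 17.5% at 10 to 20 kb, almost all of it U1 in KO-NT. Distance and segment length were not taken apart in this profile, since bins far from a border lie only in long segments. The interior of WT-NT U2 segments, beyond the outer 2 kb, differed less in longer ones. It differed over 18.6% in segments of 5 kb or more, 16.2% at 10 kb or more and 12.2% at 20 kb or more.

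**Figure D4:**
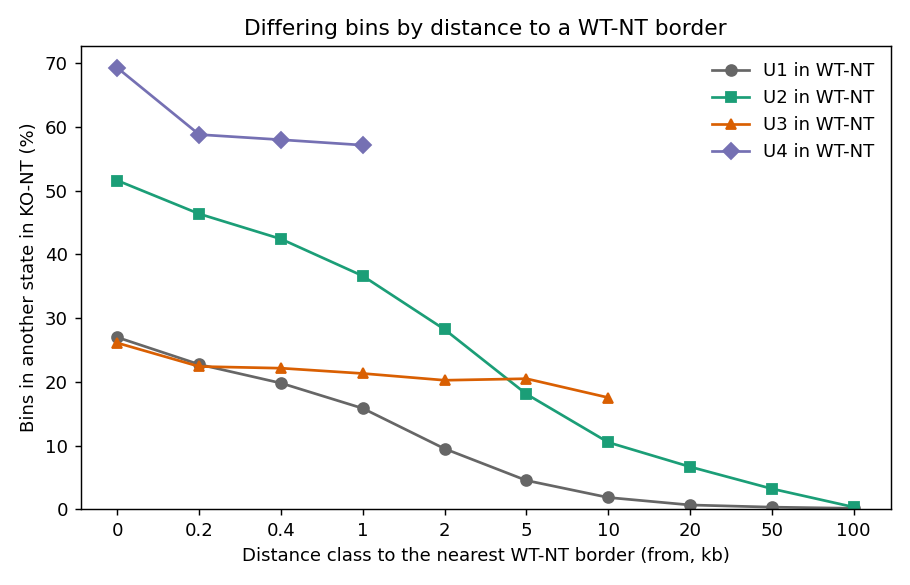
Share of bins in another state in KO-NT (percent), by WT-NT state and by distance of the bin to the nearest WT-NT border (classes named by their lower limit in kb, unevenly spaced). U2 and U1 decline with distance, U3 stays between 17.5% and 26.1%, and U4 has too few bins beyond 2 kb to be drawn.

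Read along the chromosome, the differences formed 255034 uninterrupted runs with 1 same pair of states. Their median length was 400 bp and 48.1% were single bins, but 2546 runs of 10 kb or more held 12.7% of the differing sequence. Runs were sorted by their place: a whole WT-NT segment in another state in KO-NT, a border that lay elsewhere, a piece inserted inside a WT-NT segment, or another segment edge. At these other edges, the bin beyond the WT-NT border was outside the run's KO-NT state in at least 1 genotype. Whole segments made up 39.0% of the differing sequence, shifted borders 26.5%, inserted pieces 16.0% and other edges 18.6%. For U1 in KO-NT and U2 in WT-NT, whole segments held 36.0% and shifted borders 25.3%. For the reverse, U2 in KO-NT and U1 in WT-NT, shifted borders held 42.3% and whole segments 25.6%. For U3 in KO-NT and U4 in WT-NT, whole segments held 66.9%, in runs with a median of 200 bp.

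Of the 10 longest runs, 9 were U1 in KO-NT and U2 in WT-NT. The longest covered 45.4 kb on chromosome 5, from 118086001 to 118131400 in mm9 counted from 1, and was an entire U2 segment of WT-NT. In the GS segmentations U2 held 33.0% of it in KO-GS and 33.5% in WT-GS. Next came 40.2 kb on chromosome 19, from 21195601 to 21235800, inside a U2 segment of 87.6 kb, and 39.4 kb on chromosome 2, from 146353601 to 146393000, again a whole segment. On the run of 38.8 kb on chromosome 6, from 88875801 to 88914600, U2 held 100% in both KO-GS and WT-GS, so KO-NT stood alone there. The others on this list were whole segments on chromosome 2 (32496201 to 32533600 and 134499201 to 134535400) and chromosome 11 (46485401 to 46521200), and pieces inside longer U2 segments on chromosome 4 (83816201 to 83851600) and chromosome 10 (67483801 to 67518800). Runs were also joined across gaps of up to 1 kb, and only the longest per chromosome and pair of states was kept. Of the 10 longest unjoined runs kept by that same rule, which is not quite the list above, 5 overlapped the 10 longest joined ones. A second joined run of 49.6 kb, on chromosome 4 from 31761001 to 31810600, equalled the extended run on chromosome 5.

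The exception among the 10 was U2 in KO-NT and U1 in WT-NT over 36.6 kb on chromosome 13, from 26637401 to 26674000. Runs that involved U3 were shorter. The longest with U1 in KO-NT and U3 in WT-NT was a whole U3 segment of 18.4 kb on chromosome 14, from 72853801 to 72872200, where U3 held 43.5% in KO-GS and 72.8% in WT-GS. The longest with U3 in KO-NT and U1 in WT-NT was 10 kb on chromosome 2, from 94292201 to 94302200, and that with U3 in KO-NT and U4 in WT-NT was 6.8 kb on chromosome 4, from 134723001 to 134729800.

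On the scale of 1 Mb, differences were spread over the genome. Of 2463 windows, 196 (7.96%) had U2 lower in KO-NT by over 10 percentage points and 10 (0.406%) had it higher by over 10. The 196 lay on all 19 autosomes, at 4.08% of the windows of chromosome 16 up to 13.3% of those of chromosome 18. U1 was higher by over 10 points in 320 windows (13.0%) and lower in 10 (0.406%). U3 was higher by over 10 points in 10 windows (0.406%) and lower in none (0.00%), and U4 was lower in 10 (0.406%) and higher in none (0.00%). The relative U2 difference, KO-NT against WT-NT, varied with the U2 share of the window in WT-NT and had no single trend. It was -14.5% in windows with under 5% U2, -26.9% at 5 to 10%, -27.6% at 10 to 20%, -13.6% at 40 to 60% and -5.99% at 60% or more.

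The widest U2 shortfall was on chromosome 17 from 43000001 to 44000000, with 26.7% in KO-NT and 53.2% in WT-NT. It was followed by chromosome 1 from 195000001 to 196000000, with 37.0% in KO-NT and 61.9% in WT-NT, and chromosome 9 from 111000001 to 112000000, with 11.2% in KO-NT and 35.3% in WT-NT. The window on chromosome 9 was also the one with the widest U1 excess, 79.6% in KO-NT and 51.9% in WT-NT. A window on chromosome 3 from 34000001 to 35000000 came next in U1, at 73.2% in KO-NT and 45.9% in WT-NT. In each of the 3 windows with the widest U2 shortfall U2 was also lower in GS, with 42.4%, 40.0% and 14.5% in KO-GS against 49.9%, 54.4% and 22.7% in WT-GS.

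U3 and U4 differed in the same places. In the window on chromosome 8 from 123000001 to 124000000, U3 held 43.5% in KO-NT and 26.9% in WT-NT, the widest U3 excess, and U4 held 8.68% in KO-NT and 24.1% in WT-NT, the widest U4 shortfall. U1 and U2 were close there, with U1 at 25.6% in KO-NT and 23.7% in WT-NT. In GS the window did not show this, as U4 held 25.3% in KO-GS and 20.3% in WT-GS. The next widest U3 excess was on chromosome 12 from 113000001 to 114000000, with 48.9% in KO-NT and 35.4% in WT-NT, and U4 at 2.74% in KO-NT and 13.9% in WT-NT. All 10 windows with U4 lower by over 10 points in KO-NT had it higher in KO-GS than in WT-GS, by 0.56 to 5 points. Over all windows U4 was higher in KO-GS in 49.5%, lower in 29.8% and equal in the rest, and windows without any U4 are among these. By chromosome it was higher in KO-GS on all 19 autosomes. Windows equally rich in U4 were not taken apart, so the GS direction is not shown to be particular to these 10.

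U3 shortfalls were small per 1 Mb and pronounced in shorter windows. The widest per 1 Mb was on chromosome 9 from 45000001 to 46000000, with 35.5% in KO-NT and 44.8% in WT-NT. Per 500 kb it was on chromosome 11 from 52500001 to 53000000, where U3 held 31.6% in KO-NT and 57.6% in WT-NT and U1 held 62.3% in KO-NT and 22.7% in WT-NT. This was the widest U1 excess and the widest U3 shortfall of all 500 kb windows, and in GS its U3 share was 49.0% in KO-GS and 57.6% in WT-GS. The widest U2 shortfall per 500 kb was on chromosome 10 from 119000001 to 119500000, with 19.7% in KO-NT and 52.6% in WT-NT, while in GS KO-GS was higher, at 43.4% against 37.3% in WT-GS.

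The 10 windows with U2 over 10 points higher in KO-NT lay on 8 chromosomes and held almost no U3 or U4, at most 0.880% together in KO-NT and 1.26% in WT-NT. As little U3 and U4 was also found in 708 of all 2463 windows (28.7%), and in 4 of the 196 with U2 over 10 points lower. The widest excess was on chromosome 13 from 26000001 to 27000000, around the longest run that was U2 in KO-NT and U1 in WT-NT, with 67.4% U2 in KO-NT and 45.6% in WT-NT. The adjoining window from 27000001 to 28000000 had 48.8% in KO-NT and 36.7% in WT-NT. The next was on chromosome 10 from 16000001 to 17000000, with 77.6% in KO-NT and 62.6% in WT-NT, and then chromosome 4 from 64000001 to 65000000, with 78.4% in KO-NT and 66.1% in WT-NT. In GS all 10 had less U2 in KO-GS than in WT-GS, with differences of -34.6 to -9.70 points. In GS U2 was lower by over 10 points in 9.99% of all windows, which include windows with little or no U2. Windows of like U2, U3 and U4 content were not taken apart, so the GS shortfall is not shown to be particular to these 10. On chromosome 13 from 27000001 to 28000000, for example, U2 held 25.9% in KO-GS and 60.5% in WT-GS. These windows were chosen for their NT difference, so that direction is not a finding, whereas the GS values did not enter the choice.

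**Figure D5:**
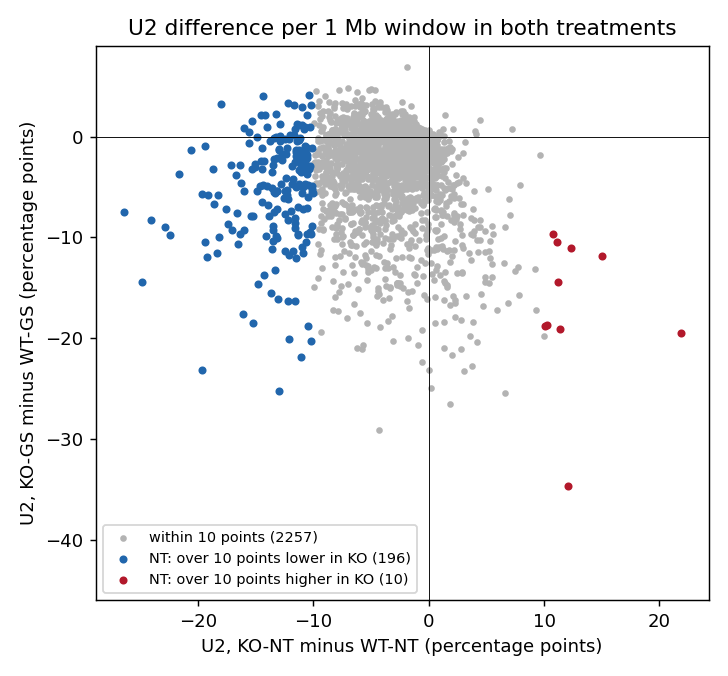
Difference in U2 share between genotypes in each 1 Mb window, KO-NT minus WT-NT on the x axis and KO-GS minus WT-GS on the y axis, both in percentage points. Of the 196 windows over 10 points lower in NT, 169 are below 0 in GS as well, and all 10 windows over 10 points higher in NT lie at -9.70 or below in GS.

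Of the 196 windows with U2 lower by over 10 points in KO-NT, 169 (86.2%) also had it lower in KO-GS than in WT-GS, with a median difference of -4.68 points in GS. Of all windows, 72.4% had it lower in KO-GS. U2 was higher in KO-GS in 13.3% of the 196 and in 17.9% of all windows, and equal in the rest. Windows with little or no U2 are part of the shares over all windows. At the level of bins a minority of each NT difference was found again in GS at the same place. Shares over all bins are given beside these values, but 67.1% of all bins were U1 in both GS segmentations. In each pair of states below, the same and the opposite difference both exceeded the share over all bins. That excess therefore does not show that a difference recurred. Of the 118 Mb that was U1 in KO-NT and U2 in WT-NT, 20.1% was likewise U1 in KO-GS and U2 in WT-GS, against 4.49% of all bins. Both GS segmentations had U2 over 35.7% of it and U1 over 27.1%, and 9.14% was the opposite, U2 in KO-GS and U1 in WT-GS, against 1.43% of all bins. Of the 41.4 Mb that was U2 in KO-NT and U1 in WT-NT, 5.63% differed the same way in GS and 33.8% the opposite way, against the same 1.43% and 4.49% of all bins. Of the 25.9 Mb that was U3 in KO-NT and U4 in WT-NT, 12.6% differed the same way and 18.5% the opposite way, against 0.411% and 0.534% of all bins.

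SIRT7 peaks listed from wild-type cells were set beside the same states. Peaks and bins are unlike units: a peak took the state covering most of it, whereas 48.1% of the differing runs were single bins. Short differences thus drop out at peaks, and no peak of either list was U4 in either genotype. A lower share of differing peaks than of differing bins can follow from that alone. Of the 58 autosomal peaks of the NT list, 45 (77.6%) were in U1 in KO-NT and 48 (82.8%) in WT-NT, beside 73.5% and 69.4% of all bins, and the state differed at 3 (5.17%), against 11.0% of all bins. Of the 2272 autosomal peaks of the GS list, 1962 (86.4%) were in U1 in KO-NT and 1981 (87.2%) in WT-NT, and the state differed at 194 (8.54%). The GS list comes from another condition than the NT states it is set beside. The peak values that follow are counts out of 2272, not percentages like those of the bins. Of the 2272 peaks, 64 were U1 in KO-NT and U2 in WT-NT, a pair that held 4.79% of all bins. U3 in KO-NT and U1 in WT-NT was found at 47, beside 0.336% of all bins. U2 in KO-NT and U1 in WT-NT was found at 44, beside 1.68% of all bins. Of the same 2272 peaks, 205 were U2 in KO-NT and 254 in WT-NT, beside 17.2% and 20.8% of all bins. U3 held 105 in KO-NT and 37 in WT-NT, beside 8.30% and 7.69% of all bins.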

How the data were processed

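Crosslinked chromatin of KO-NT and WT-NT fibroblasts was precipitated for H3K27me3 and mH2A1 from whole cell extracts, per the labels' protocols. The deposited segmentations hold state names (no measured unit) for 200 bp bins, 1 per condition with both replicates pooled, per the labels. The deposited SIRT7 peak lists also hold a score per peak from the authors, which was not used here. The submitters' processing notes name builds mm9 and hg19 and the tools deepTools 2.4.2, MACS 1.4.2, SAMtools 0.1.19, Bowtie, Trimmomatic 0.36 and FastQC 0.11.3, without roles. Chromosome ends match mm9, in which all coordinates are given.

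Shares, state pairs, segments, domains, border distances, runs and windows were counted with Python 3.11.15, numpy 2.4.6 and pandas 2.3.3, drawn with matplotlib 3.10.9, and checked on simulated segmentations. A segment is an uninterrupted stretch of 1 state. A peak took the state covering most of it. Regions named are the 3 windows of 1 Mb with the largest difference per state and direction, the 10 longest runs and the 3 longest per pair of states, of which the text gives the leading ones, and the extreme chromosomes. The 500 kb windows and the list of 10 windows with higher U2 were described after their values were seen. With 1 segmentation per genotype no test was made.

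Members and lists were chosen with earlier results of these data known. Gene lists drawn up for promoters were not used, since the annotation at hand was of another build than mm9, so no gene is named. Chromosomes X, Y and M and the signal tracks were not analysed here. The sources used here do not give depth per library, so the precision of the state calls is unknown.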

Additional observations from a re-analysis of the deposited data

Results flagged for a closer look

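The following results differed in direction between the NT and GS pairs of segmentations, and none of these differences was tested, since each condition has 1 segmentation. The U3 share, KO minus WT, was 0.600 points in NT and -0.169 in GS. The U4 share, KO minus WT, was -1.11 points in NT and 0.147 in GS, with all 19 autosomes lower in NT and all 19 higher in GS. The number of U3 segments differed by -30.6% in NT and 10.7% in GS, and that of U4 segments by -45.8% in NT and 10.3% in GS, KO against WT. Mean U1 length differed by -1.67% in NT and 4.09% in GS, KO against WT. For mean U2 length the values were 21.9% in NT and -10.5% in GS, and for mean U3 length 55.4% and -11.5%. In the 10 windows of 1 Mb chosen for U2 over 10 points higher in KO-NT, the median difference was 11.26 points in NT, which the choice fixed, and -16.59 in GS. KO-NT had the fewest segments of the 4 segmentations, 232353, against 331492 in KO-GS, 314776 in WT-GS and 348157 in WT-NT. Read depth per library is unknown, and its part was not tested.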

How the results depend on the processing

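Of 104 alternative values, 7 reversed, all of these in GS, and the other 97 kept their direction. Many of the 104 could not reverse, so that count does not measure robustness. Shares of bins or sequence and run lengths are positive by definition, and the widest gains and losses over 500 kb windows were picked by their sign. The difference in marked share is that of U1 with the sign turned, so it adds no separate value. For 68 of these the value left the counting interval of the bins, which is narrow, or, for segment numbers and lengths, moved by over 1.5 times; the other 29 stayed within these limits. Differences are KO minus WT.

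In bins of 1 kb the differences were -3.87 points for U2, 0.486 for U3 and -0.729 for U4, and 10.7% of bins differed. Of the WT-NT states, 22.8% of U2 was then U1 in KO-NT, 2.43% of U1 was U2, 15.8% of U3 was U1, 5.23% of U2 was U3 and 62.5% of U4 was U3. Mean U2 length differed by 5.92%, U3 number by -18.5% and mean U3 length by 30.1%.

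With segments under 1 kb joined the differences were -3.98 points for U2, 0.441 for U3 and -0.560 for U4, and 10.5% of bins differed. The state pairs came to 22.7% (U2, U1 in KO-NT), 2.43% (U1, U2 in KO-NT), 15.5% (U3, U1 in KO-NT), 5.54% (U2, U3 in KO-NT) and 66.8% (U4, U3 in KO-NT). U2 number differed by -18.7%, mean U2 length by 0.238%, U3 number by -11.4% and mean U3 length by 18.98%. Within 2 kb of a border lay 53.2% of differing bins. Whole segments held 29.3% of differing sequence, shifted borders 37.7%, inserted pieces 22.1% and edges 11.0%. In the 1 Mb windows with the widest differences they were 19.9 points for higher U3, 2.28 for higher U4 and -18.4 for lower U4.

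Without the initial 3 Mb the differences were 4.22 points for U1, -3.70 for U2, -1.14 for U4 and -4.22 for marked sequence, 11.3% of bins differed and 2.50% of WT-NT U1 was U2 in KO-NT. Medians over autosomes were 3.99 points for U1, -3.55 for U2, -1.17 for U4 and -3.99 for marked sequence, with 11.1% of bins differing, and the state pairs in the order above were 22.7%, 2.37%, 16.7%, 4.51% and 49.7%.

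In GS the differences were 3.33 points for U1, -3.30 for U2, -0.169 for U3, 0.147 for U4 and -3.33 for marked sequence, 9.85% of bins differed, and the state pairs were 21.5%, 2.08%, 8.29%, 3.79% and 24.1%. Segment numbers differed by 0.703% for U1, -5.91% for U2, 10.7% for U3 and 10.3% for U4, and mean lengths by 4.09%, -10.5%, -11.5% and -1.50% in that order. The cause of the reversals was not tested.

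Within 1 kb of a border lay 49.9% of differing bins, within 5 kb 85.7%, and within 2 kb of KO-NT borders 56.1%. In 500 kb windows the widest differences were 39.6 points for higher U1, -33.0 for lower U2, -26.0 for lower U3 and 2.64 for higher U4.

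Leaving out a replicate was not possible because each segmentation pools its replicates, and the promoter analysis had no mm9 annotation. No paired analysis was possible because the deposited segmentations carry no replicate. The planned states at gene promoters were therefore not run.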
